A study of Gallus gallus with 8 samples.

Results

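The genes described here encode splicing factors and RNA helicases. The rule reads the gene name and no measured value: a gene was a member when the chicken RefSeq symbol matched to its probe accession began with SRSF, HNRNP, SF3, SNRP, PRPF, LSM, U2AF, RBM, DDX or DHX. This gave 60 genes with 174 probes, out of 31529 gene entries on the array, of which 4932 carried a symbol. By prefix, 14 were RBM genes, 13 DDX, 9 SRSF, 8 HNRNP, 4 DHX, 3 each PRPF, LSM and SNRP, 2 SF3 and 1 U2AF.

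Total RNA of DT40 cells, a chicken B cell lymphoma line of the bursa, was read on Agilent arrays in a single colour. The 3 groups were wild-type cells (WT, 3 arrays), BCL6-deficient cells (BCL6KO, 2 arrays) and cells labelled as deficient in both IRF4 and BCL6 (DKO, 3 arrays). The labels name no clone, no passage and no treatment, and the extraction protocol mentions separate cultures for WT and IRF4-deficient cells only. The series is titled as a study of antibody secretion driven by BLIMP-1 when IRF4 is missing, and the labels give no question for the genes described here.

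An intron is removed by the spliceosome, a machine that is rebuilt on each intron from small nuclear ribonucleoproteins. Sm and LSm proteins form rings on the small nuclear RNAs, SF3 and U2AF proteins recognise the branch point and the 3′ splice site, and PRPF proteins hold the machine together and drive it to its active form. SR proteins mostly favour the use of an exon and hnRNP proteins often oppose it, while DEAD-box and DEAH-box helicases use ATP to unwind RNA or strip proteins from it, in splicing, export, translation and ribosome assembly. In B cells, splicing also decides between the membrane and the secreted form of the immunoglobulin heavy chain.

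A level is the log2 processed signal from which the array's own 75th percentile was subtracted, so a level of 0 is that percentile and a difference of 1 is 2-fold. A level depends on the probe as well as on the RNA, and levels are compared between arrays, never between genes. Each gene was read by its probe with the highest mean level. A change was called at a Benjamini-Hochberg adjusted p under 0.05 in a single limma fit over all 24147 gene entries that 2 or more of the 8 arrays read well above background. Of the 60 members 59 were tested, and all 59 were well above background on all 8 arrays. The exception was DDX4, the helicase known as Vasa in germ cells, which was well above background on 1 of 8 arrays.

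The targeted genes were read first. IRF4 was 26.6-fold lower on the DKO arrays than on the WT arrays, and BCL6 was 156-fold lower on the BCL6KO arrays. On the DKO arrays the BCL6 probe with the highest level was only 3.36-fold lower than on WT, while 1 of the 4 BCL6 probes was well above background on 0 of the 5 arrays of the deficient groups. DKO is used below as the label of these arrays. A table of processed values by the authors covers the same samples, but its columns labelled WT follow the scanner files labelled DKO, so it enters none of the comparisons below and is described only among the additional observations. The B cell label was checked against 11 measured markers. Their levels were summed on the linear scale, where bright markers weigh most, and the sum was taken to log2, as in all marker sums below. It was 6.93 to 7.06 on WT, 6.13 to 6.40 on DKO and 5.22 to 5.86 on BCL6KO arrays. Against WT 9 of the 11 were called lower and 1 higher on BCL6KO, and 6 lower and 3 higher on DKO. On the BCL6KO arrays 10 and 8 of the 11 were well above background, beside all 11 on each WT and DKO array. PAX5, the B cell commitment factor, was not well above background on either BCL6KO array. Of 11 measured fibroblast and mesenchyme markers 8 were higher and 1 lower on BCL6KO than on WT. Summed levels were 2.56 to 2.94 against -0.92 to -0.84, and all 11 were well above background on BCL6KO, beside 3 to 5 on WT. Of all probes 75.1% to 79.2% were well above background on BCL6KO arrays and 62.4% to 68.2% on WT arrays. On DKO the sums were 1.40 to 1.59, with 5 of 11 higher than WT and 0 lower. Summed T cell markers (6 genes) were 6.10 to 6.15 on WT, 1.22 to 1.83 on BCL6KO and 3.67 to 4.03 on DKO. In each deficient group 4 of the 6 were called lower and 2 higher. Myeloid sums (5 genes) were -0.57 to -0.49 on WT, -2.28 to -1.84 on BCL6KO and -1.27 to -1.14 on DKO. Of the 5 genes 3 were called lower and 2 higher on BCL6KO, and 2 lower and 2 higher on DKO. Erythroid sums (4 genes) were -3.23 to -3.02 on WT, -2.40 to -2.15 on BCL6KO and 0.45 to 0.54 on DKO, with 2 of 4 called higher in each deficient group. The part of these differences in the results below was not tested. The BCL6KO arrays were also scanned in a session of their own with a later version of the scanner software, and this and the genotype cannot be told apart. In these bulk samples, fewer cells of a type and less RNA per cell cannot be told apart either.

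Most of the members that changed in BCL6KO cells were lower than in WT cells. Of 59 members 32 were called lower and 5 higher in BCL6KO, against 27.6% of all genes tested called lower and 42.0% called higher (69.6% in either direction). Their median log2 change was -0.33, against 0.24 over all genes. The changes were modest in size: 13 members passed both the test and a 1.5-fold difference, beside 53.7% of all genes, and 3 members passed 2-fold, beside 35.8%. In DKO cells 18 members (30.5%) were called higher than WT and 7 (11.9%) lower. Over all genes these shares were 28.6% and 23.7% (52.3% in either direction). Members were thus called higher about as often as all genes and lower less often, with a median of 0.11 against 0.07 over all genes. DKO set directly against BCL6KO, which shares arrays with both comparisons above, had 36 members higher and 5 lower, against 29.0% and 39.3% of all genes (68.3% in either direction), with medians of 0.44 and -0.17. At 1.5-fold 4 members passed in DKO against WT and 21 in DKO against BCL6KO, beside 34.0% and 51.6% of all genes, and at 2-fold 2 and 8 passed, beside 21.3% and 33.9%.

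**Figure D1:**
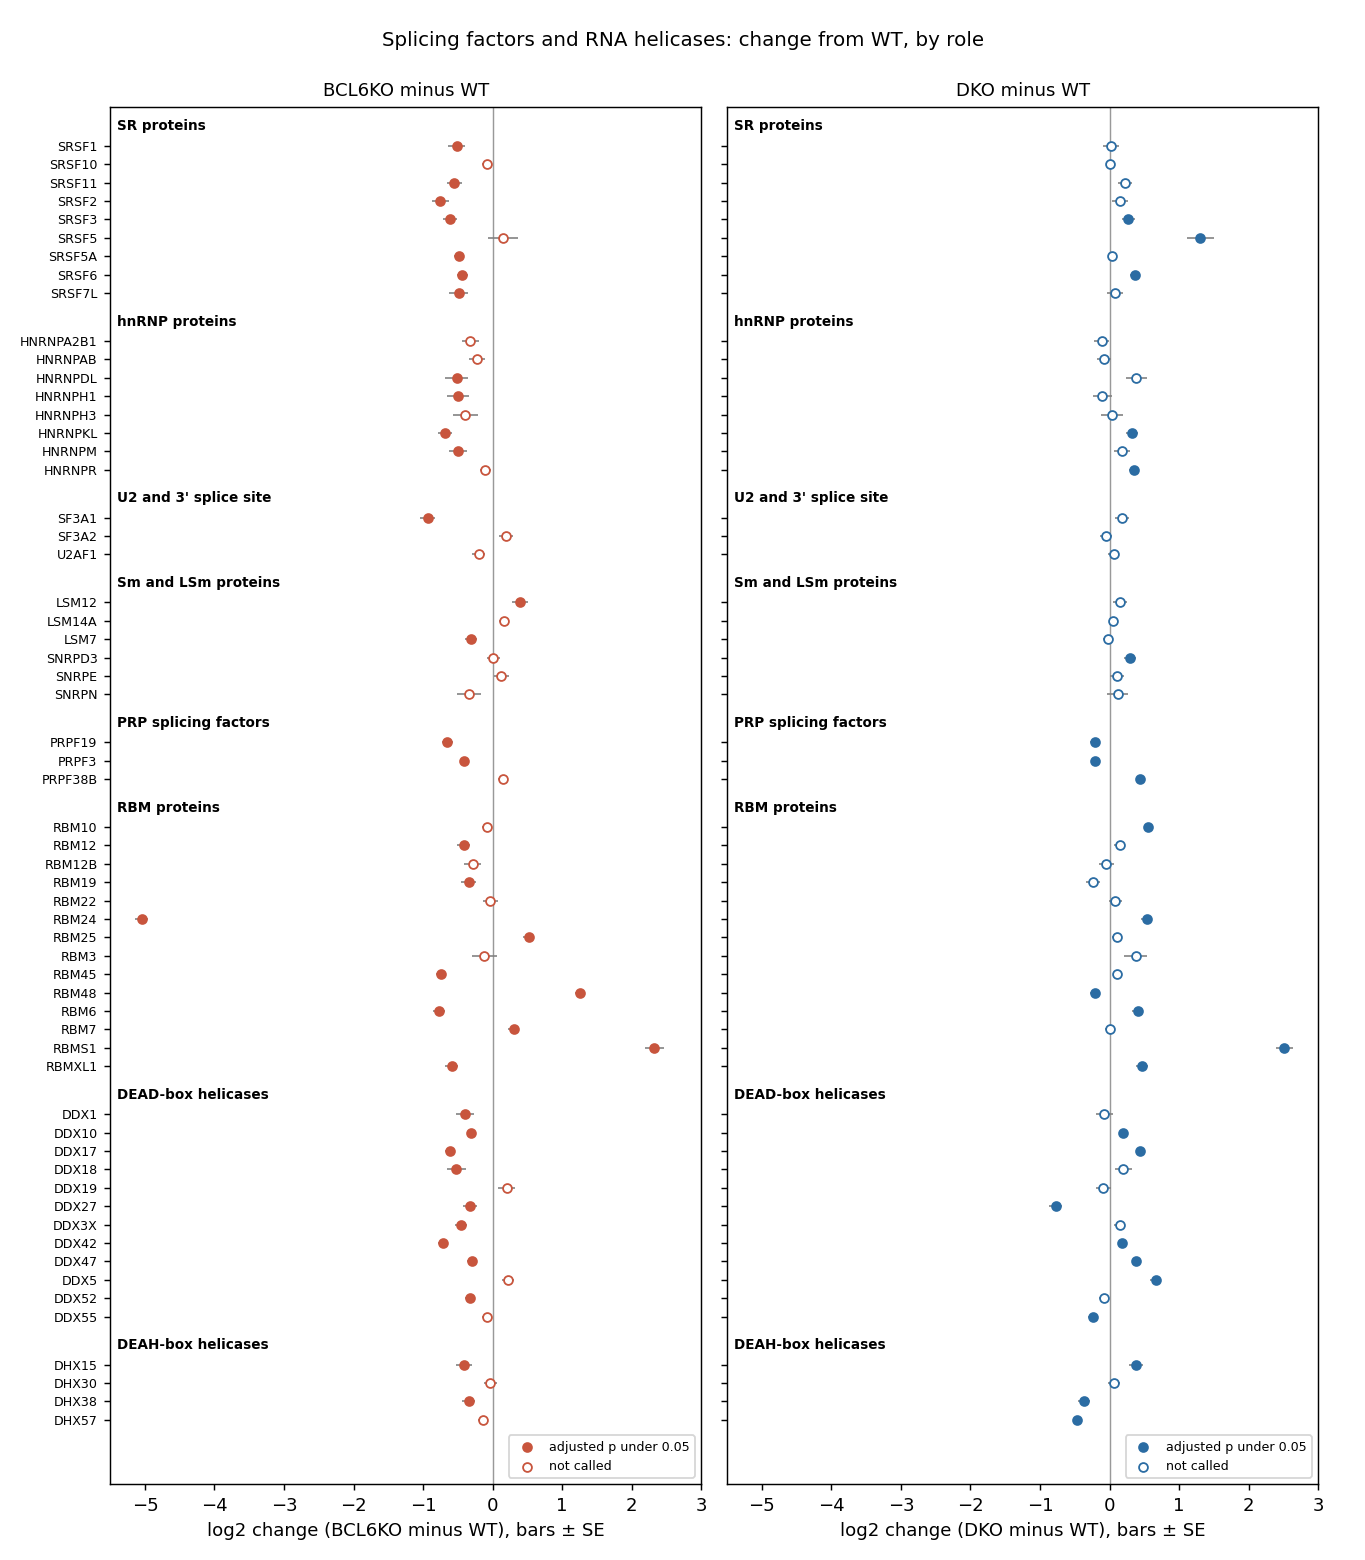
Log2 change of each of the 59 tested members from WT (horizontal axis) in BCL6KO (left) and DKO (right), grouped by role. Points are estimates from the limma fit, bars are standard errors, and filled points passed an adjusted p of 0.05. Filled points lie mostly left of 0 in BCL6KO (32 lower, 5 higher) and mostly right of 0 in DKO (18 higher, 7 lower). Of all genes tested 27.6% were lower and 42.0% higher in BCL6KO, and 28.6% were higher and 23.7% lower in DKO.

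Scaling each array by its median instead of its 75th percentile shifted all genes and the members alike. This scaling subtracts a constant from each array, so it could not change the distance between the members' median and that of all genes. In DKO against WT the members' median went from 0.11 to -0.036, and that of all genes from 0.07 to -0.08. After it 12 members were called higher and 9 lower, beside 12910 of all genes called, 41.9% of them higher. For BCL6KO against WT the median of all genes was 0.24 before and -0.05 after. For DKO against BCL6KO it was -0.17 before and -0.03 after. In BCL6KO against WT the members' median was -0.62 under that scaling. The number called in DKO against WT also varied with the arrays kept: it was 15 without WT replicate 2, 15 without WT replicate 3 and 16 without DKO replicate 1. In the same fits 10780, 10995 and 11121 of all genes were called, beside 12623 with all arrays. Of the members called 29 of 37, 15 of 25 and 34 of 41 in the 3 comparisons stayed called in the same direction whichever array was left out. In BCL6KO against WT 13 of the 37 called members moved by over 1.5 times when a BCL6KO array was left out, and 0 moved that far without any other array. How many of all called genes stayed called or moved that far was not counted. The median in BCL6KO against WT was -0.21 without BCL6KO replicate 1 and -0.45 without BCL6KO replicate 2.

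Array by array, the median deviation of the members from their WT mean was -0.45 and -0.21 on the BCL6KO arrays and 0.12, 0.07 and 0.16 on the DKO arrays. The pair of BCL6KO arrays was uneven: 50 of 59 members read lower on replicate 1 than on replicate 2, and the median SD of a member was 0.17 in BCL6KO against 0.05 in WT and 0.06 in DKO. The median deviation over all genes was also lower on replicate 1, at 0.19 against 0.28 on replicate 2. How many of all genes read lower on replicate 1 was not counted. Over all genes the SD of the difference between arrays of a group was 0.65 in BCL6KO, 0.44 to 0.46 in WT and 0.45 to 0.49 in DKO. Over the members it was 0.21, 0.08 to 0.10 and 0.10 to 0.13. For 39 of 59 members both BCL6KO arrays lay below every WT array and for 9 above, against 31.3% and 47.5% of all genes. For 32 of 59 all DKO arrays lay above every WT array and for 8 below, against 37.9% and 31.4%. For 40 all DKO arrays lay above both BCL6KO arrays and for 10 below, against 32.7% and 44.8%. The group mean was lowest in BCL6KO for 42 members and highest in DKO for 37, and how often this held over all genes was not counted.

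The members are brighter than most genes on the array, and the change of all genes depended on brightness. In BCL6KO against WT, the median of all genes was 0.74 for 8837 genes with a mean level of -4 or less and -0.15 for 2394 genes between 2 and 4. Among the 7235 genes with a mean level above 0, the median was -0.08, with 31.7% called higher and 39.0% lower. The 54 members in that range had a median of -0.32, with 4 higher and 29 lower. In DKO against BCL6KO the same genes had a median of 0.08, with 38.4% called higher and 30.6% lower. The 54 members had a median of 0.43 there, with 33 higher and 3 lower. In DKO against WT the medians were 0.04 and 0.11. Of the same genes 28.6% were called higher and 27% lower in that comparison, and of the 54 members 16 were higher and 5 lower.

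**Figure D2:**
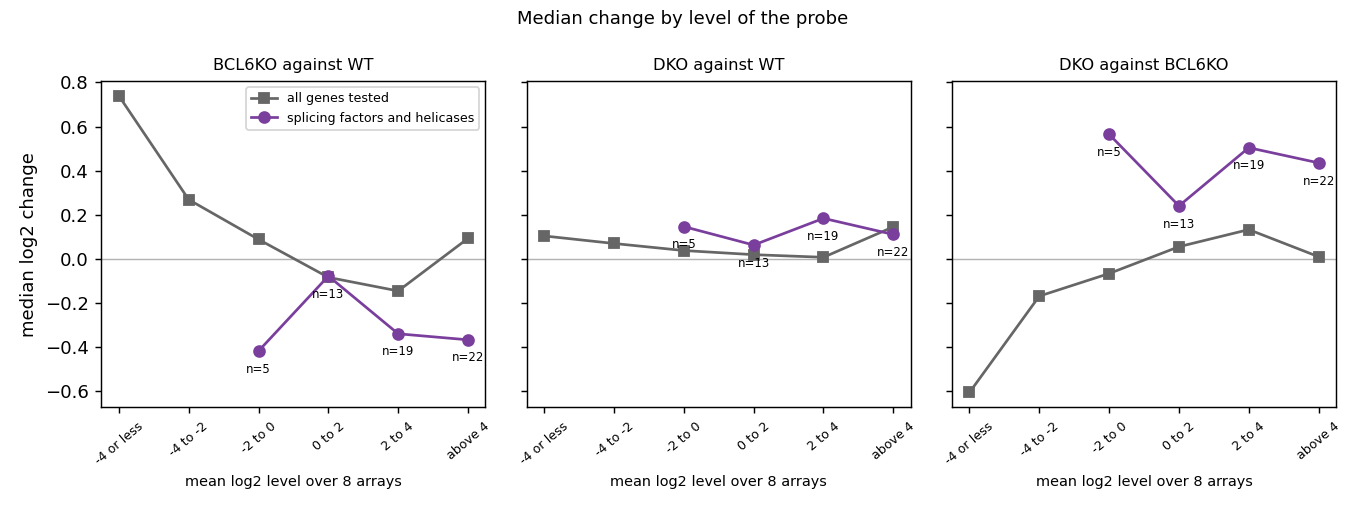
Median log2 change (vertical axis) by mean log2 level over the 8 arrays (horizontal axis, bins of 2 log2 units), for all genes tested (grey squares) and for the members (purple circles, with the number of members), in the 3 comparisons. In BCL6KO against WT the members' medians are -0.42 (5 genes), -0.08 (13), -0.34 (19) and -0.37 (22), where all genes have 0.09, -0.08, -0.15 and 0.09.

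SR proteins, which bind exonic enhancers and recruit the early spliceosome, were mostly lower in BCL6KO. Of 9 SR genes 7 were lower in BCL6KO than in WT and 0 higher (median -0.49), beside 27.6% and 42.0% of all genes. Among genes with a mean level above 0 these shares were 39.0% and 31.7%. With scaling by the median, quantile normalization, cyclic loess or normexp with repaired background, 7 or 8 of the 9 SR genes were called lower and 0 higher. SRSF2, known as SC35 and used to mark nuclear speckles, read 4.53, 4.30 and 4.48 on the WT arrays, 3.54 and 3.83 on the BCL6KO arrays and 4.68, 4.46 and 4.62 on the DKO arrays. Both BCL6KO values lie below all 6 others, while WT and DKO overlap. The log2 change in BCL6KO was -0.75 ± 0.12 (SE; adjusted p = 0.00162), and in DKO it was 0.15 ± 0.11 (adjusted p = 0.316).

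SRSF3, among the smallest SR proteins and a regulator of its own transcript in mammals, read 5.32, 5.35 and 5.33 in WT, 4.61 and 4.84 in BCL6KO and 5.62, 5.47 and 5.72 in DKO. Here the 3 groups did not overlap. The fall in BCL6KO was -0.61 ± 0.10 (adjusted p = 0.00181), the rise in DKO 0.27 ± 0.09 (adjusted p = 0.0467), and DKO against BCL6KO gave 0.88 ± 0.10 (adjusted p = 0.000326). The DKO rise of SRSF3 did not pass the test without any single WT array, without DKO replicate 1 or 3 (0.21 to 0.28), or under scaling by the median or quantile normalization (0.12 and 0.11). SRSF6 had the same order of groups, with changes of -0.43 in BCL6KO and 0.37 in DKO. SRSF1, the founding member of the family, was at -0.52 in BCL6KO (-0.31 without BCL6KO replicate 1, still called) and 0.02 in DKO, where it was not called.

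The other SR genes lower in BCL6KO were SRSF11 (-0.55), SRSF7L (-0.49) and SRSF5A (-0.48), and these 3 were not called in DKO against WT. Without BCL6KO replicate 1, SRSF11 was at -0.37 and SRSF7L at -0.26, both still called. Most probes of the SR genes ran the same way: of 39 SR probes 30 were called lower in BCL6KO and 0 higher, beside 29.5% and 40.8% of all 34229 probes tested. All 5 probes of SRSF1, all 5 of SRSF2 and all 7 of SRSF3 were called lower, with ranges of -0.87 to -0.44, -1.07 to -0.75 and -0.88 to -0.50. Not all SR probes fell alike, in a test between probes chosen after their values were seen. Against the brightest probe of the gene, a probe of SRSF11 differed by 0.66, of SRSF5A by 0.45 and of SRSF6 by 0.26 (adjusted p = 0.000758, 0.0359 and 0.0468). Probes of SRSF1, SRSF2, SRSF3, SRSF5 and SRSF10 differed in the other direction. Probes of a gene read the same RNA sample and are not replicates.

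SRSF5 stood apart from the other SR genes. It read -0.12, 0.01 and -0.05 in WT, -0.31 and 0.50 in BCL6KO, and 1.27, 1.24 and 1.25 in DKO. The DKO arrays lay together above all others, and the BCL6KO pair straddled WT. The rise in DKO was 1.31 ± 0.19 (adjusted p = 0.00121), 2.47-fold, and was called under all 21 alternatives run for that comparison. Its 4 probes rose by 1.25 to 1.31 in DKO, and 0 of 4 were called in BCL6KO. The change in BCL6KO was 0.15 ± 0.21 (adjusted p = 0.559), and it was called in opposite directions when either BCL6KO array was left out (0.55 and -0.26). DKO exceeded BCL6KO by 1.16, or by 0.75 without BCL6KO replicate 1. SRSF5A, a separate entry with a related name, changed by 0.04 in DKO (adjusted p = 0.657).

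**Figure D3:**
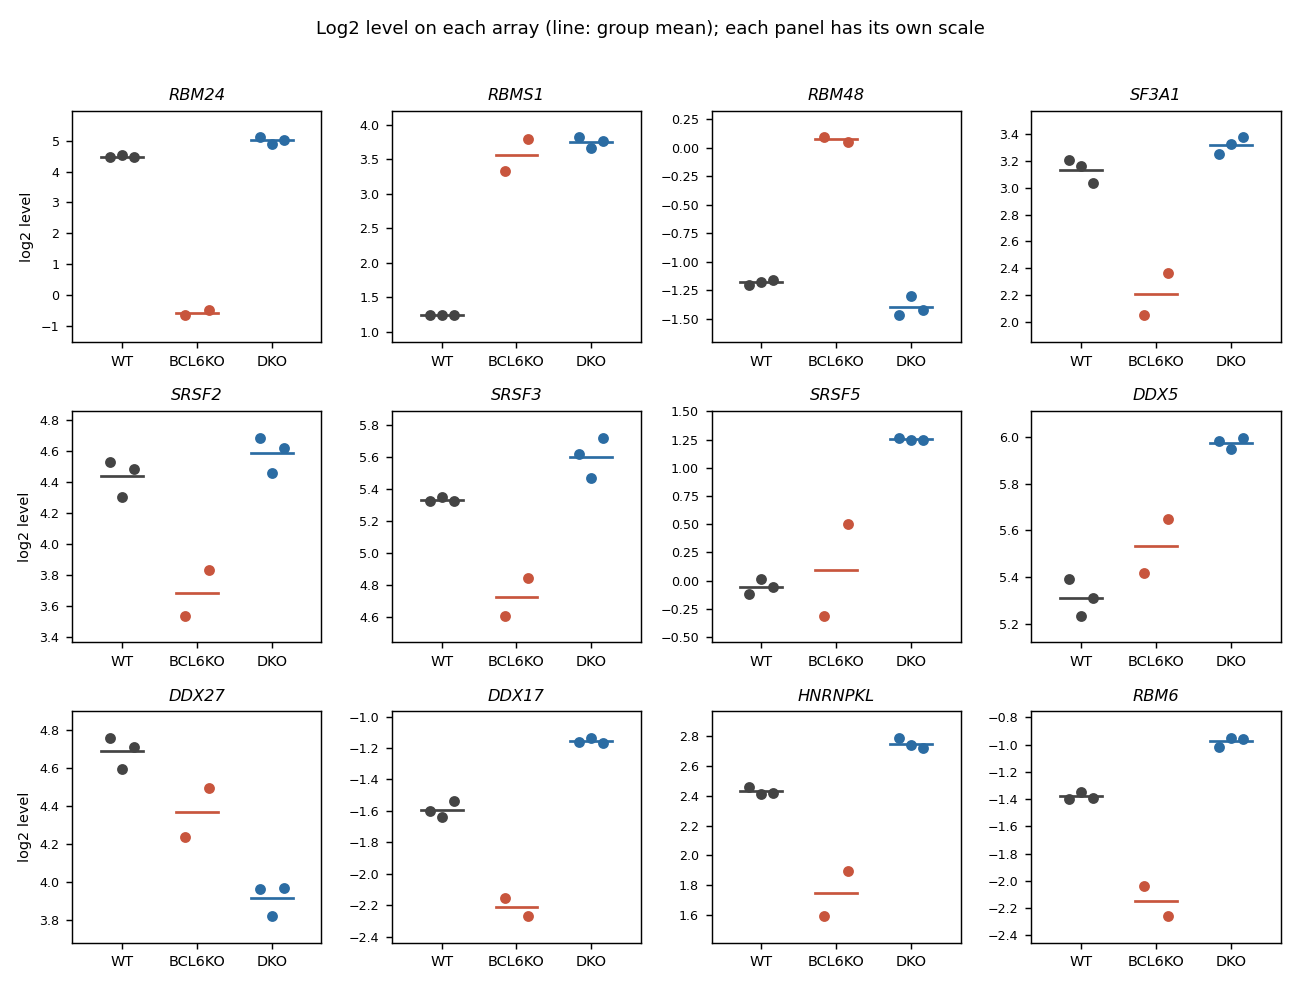
Log2 level (vertical axis, a scale per panel) of 12 members on each array of WT (grey), BCL6KO (red) and DKO (blue); points are arrays and lines are group means. RBM24 falls from about 4.5 to below 0 in BCL6KO, RBMS1 is high in both deficient groups, SRSF5 is high only on the 3 DKO arrays of the 8, and SF3A1, SRSF2, SRSF3, DDX17, HNRNPKL and RBM6 have both BCL6KO arrays below all others.

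The hnRNP proteins coat nascent transcripts. Of 8 genes 4 were lower in BCL6KO and 0 higher (median -0.45), namely HNRNPKL, HNRNPDL, HNRNPH1 and HNRNPM. Of all genes 27.6% were lower and 42.0% higher, and of genes with a mean level above 0 39.0% were lower and 31.7% higher. Without BCL6KO replicate 1, HNRNPM was at -0.28 rather than -0.50, and HNRNPH1 at -0.24 rather than -0.50 and no longer called. In DKO 2 of 8 were higher than WT (HNRNPR by 0.35 and HNRNPKL by 0.32) and 0 lower, which is no larger a share than the 28.6% of all genes called higher. HNRNPKL read 2.46, 2.41 and 2.42 in WT, 1.59 and 1.90 in BCL6KO and 2.79, 2.74 and 2.72 in DKO, so that its groups did not overlap. Its change in BCL6KO was -0.68 ± 0.10 (adjusted p = 0.00078) and DKO exceeded BCL6KO by 1.00 ± 0.10 (adjusted p = 0.000131). In the test between probes for BCL6KO against WT, its other probes differed from the brightest by 0.18 and 0.48 (adjusted p = 0.0397 and 0.00645). Probes of HNRNPH1 differed by 0.39, 0.30 and 0.47 (adjusted p = 0.0138, 0.0176 and 0.00949), its others were not called, and a probe of HNRNPM differed by -0.22 (adjusted p = 0.0189). The DKO rise of HNRNPKL did not pass the test without any single WT array, without DKO replicate 1 or 2 (0.30 to 0.33), or under scaling by the median (0.17). The symbol stands for a close copy of HNRNPK, and how its 3 probes divide between the copies is uncertain.

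HNRNPA2B1, which binds many pre-mRNAs and sorts RNAs for transport, was at -0.32 in BCL6KO with an adjusted p of 0.0502. It was called lower under 7 of 20 alternatives, and 4 of its 5 probes were called lower when all probes were tested. HNRNPDL changed by -0.52 ± 0.17 in BCL6KO (adjusted p = 0.0311), a call lost without any single WT array and without DKO replicate 1 or 2 (-0.54 to -0.50). It was -0.20 without BCL6KO replicate 1 and -0.83 without BCL6KO replicate 2, and DKO exceeded BCL6KO by 0.90, or by 0.59 without BCL6KO replicate 1. HNRNPAB and HNRNPH3 were called in no comparison. DKO exceeded BCL6KO in 4 of the 8 hnRNP genes, and 0 were lower. Of all genes 29.0% were higher and 39.3% lower, and of genes with a mean level above 0 38.4% were higher and 30.6% lower.

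The genes of U2 recognition differed among themselves and between their own probes. SF3A1, a subunit that helps the U2 particle bind the branch point, read 3.21, 3.16 and 3.04 in WT, 2.05 and 2.36 in BCL6KO and 3.25, 3.33 and 3.38 in DKO. Both BCL6KO arrays lay far below the rest. The fall was -0.93 ± 0.11 (adjusted p = 0.000328), 1.91-fold, and was called under all 20 alternatives, while the change in DKO was 0.18 ± 0.10 (adjusted p = 0.171). The other SF3A1 probe gave -0.96 in BCL6KO.

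SF3A2, its partner in the same complex, was not called by its brightest probe (0.19, adjusted p = 0.131), but its other probes fell by 0.50 and 0.94 on the log2 scale. U2AF1, the small subunit that reads the AG at the 3′ splice site, split in the same way. Its brightest probe changed by -0.20 and its second by -0.08, neither called, whereas the other 3 fell by 1.31, 1.23 and 1.22. In DKO against WT all 5 U2AF1 probes lay between -0.02 and 0.08, with 0 called. The gap between those 3 probes and the brightest one was itself called in BCL6KO against WT (-1.11, -1.03 and -1.02, adjusted p = 0.000524, 0.000418 and 0.00271), a test chosen after the probe values were seen.

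**Figure D4:**
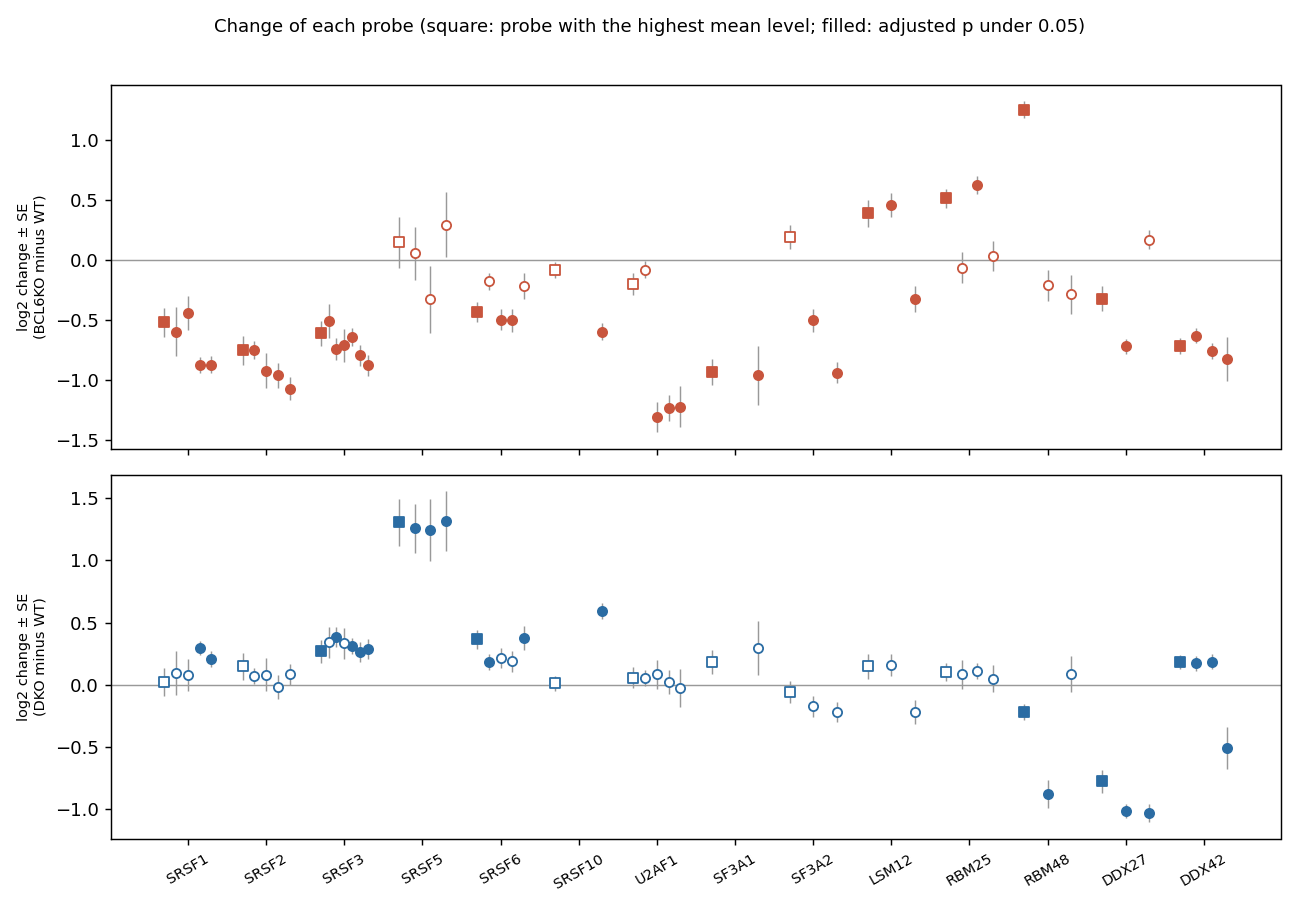
Log2 change with its standard error (vertical axis) for each probe of 14 members (horizontal axis), in BCL6KO (upper) and DKO (lower) against WT. Squares mark the probe with the highest mean level and filled symbols passed an adjusted p of 0.05 in the fit over all probes. The probes of SRSF2 and SRSF3 all fall in BCL6KO, and those of SRSF5 run together in DKO. In BCL6KO a probe of SRSF5 differs from its brightest by -0.47, and those of U2AF1, SF3A2, LSM12, RBM25 and RBM48 split into groups.

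Such splits were not particular to these genes. Of 114 further probes of members 40 differed from the brightest probe of their gene in BCL6KO against WT, beside 37.5% of all further probes on the array. In DKO against WT the number was 6, beside 11.4%, and in DKO against BCL6KO it was 39, beside 37.1%. Which part of a transcript each probe reads was not analysed here. SRSF10, which represses splicing when dephosphorylated in mammals, was at -0.08 and 0.01 by its brightest probe, called in no comparison, while its second probe was at -0.59 in BCL6KO and 0.59 in DKO, both called. Over all 173 member probes tested 96 were lower and 14 higher in BCL6KO, and 52 were higher and 18 lower in DKO, where 28.8% of all probes were higher and 25% lower. In DKO against BCL6KO 112 were higher and 13 lower, where 30.2% of all probes were higher and 38.4% lower.

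By their brightest probes, Sm and LSm genes moved little. Of their 15 probes 3 were called lower and 5 higher in BCL6KO, beside 29.5% and 40.8% of all probes. Of 6 genes LSM12 was higher in BCL6KO (0.39, adjusted p = 0.02) and LSM7, part of the ring that binds U6 small nuclear RNA, was lower (-0.31, adjusted p = 0.0123). The LSM12 change was 0.21 without BCL6KO replicate 2, and its call was lost without WT replicate 3 (0.35), under scaling by the median (0.10) and with its probes averaged (0.17), and its probes were called in both directions in BCL6KO (0.39, 0.46 and -0.32). SNRPD3, a core Sm protein, was higher in DKO (0.30, adjusted p = 0.0228), a call lost without any single WT array, without DKO replicate 1 or 3 (0.25 to 0.31), and under scaling by the median or quantile normalization (0.15 and 0.18). In the test between probes, the other SNRPD3 probe differed from the brightest by -0.34 in BCL6KO against WT (adjusted p = 0.0164). In DKO against BCL6KO it differed by 0.42 (adjusted p = 0.00803). SNRPN, a further Sm protein, was called only in DKO against BCL6KO (0.46, adjusted p = 0.0491). SNRPE, another Sm protein, was called in no comparison, and neither was LSM14A, which acts in translational repression rather than splicing.

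The PRPF genes were called lower in BCL6KO in 2 of 3 cases, beside 27.6% of all genes and 39.0% of genes with a mean level above 0. PRPF19, the scaffold and ubiquitin ligase at the centre of a complex that activates the spliceosome, read 2.03, 1.97 and 2.08 in WT, 1.39 and 1.36 in BCL6KO and 1.93, 1.74 and 1.78 in DKO. Its BCL6KO arrays were lowest and DKO lay between. The change in BCL6KO was -0.65 ± 0.08 (adjusted p = 0.000402), with all 4 probes called lower, and in DKO it was -0.21 ± 0.07 (adjusted p = 0.0445), a call lost without any single WT array and without DKO replicate 2 or 3 (-0.24 to -0.18). PRPF3, a component of the U4/U6 particle, changed by -0.40 in BCL6KO and -0.21 in DKO. Its other probe was at 0.01 in BCL6KO and not called, a gap of 0.41 that was itself called (adjusted p = 0.00409), and in DKO against BCL6KO its probes were called in opposite directions (0.19 and -0.24). PRPF38B rose in DKO by 0.44 ± 0.06 (adjusted p = 0.000939) and was at 0.14 in BCL6KO, where it was not called.

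The RBM genes, named only for an RNA-binding motif and diverse in function, held the widest spread, from -5.05 to 2.33 in BCL6KO. RBM24, known in vertebrates as a splicing regulator of heart and skeletal muscle, read 4.46, 4.52 and 4.46 in WT, -0.65 and -0.48 in BCL6KO and 5.11, 4.90 and 5.03 in DKO. It was still well above background on both BCL6KO arrays. The fall was -5.05 ± 0.09 (adjusted p = 7.43e-08), 33.1-fold, and its second probe gave -5.34. DKO lay slightly above WT, by 0.54 ± 0.08 (adjusted p = 0.00128), and above BCL6KO by 5.58 ± 0.09 (adjusted p = 6.53e-08).

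RBMS1, which binds single-stranded DNA and RNA and is known from the MYC promoter, rose in both deficient groups. It read 1.25, 1.24 and 1.24 in WT, 3.33 and 3.80 in BCL6KO and 3.82, 3.67 and 3.76 in DKO. All 5 arrays of the deficient groups lay above WT, and the BCL6KO pair overlapped DKO. The rises were 2.33 ± 0.14 (adjusted p = 1.09e-05) and 2.51 ± 0.12 (adjusted p = 5.51e-06), 5.01-fold and 5.70-fold, and DKO against BCL6KO was 0.19 ± 0.14 (adjusted p = 0.261; 95% interval -0.14 to 0.51). Its 3 probes gave 2.33 to 2.39 in BCL6KO and 2.51 to 2.60 in DKO. RBMS1 was the only member called higher in both groups, and the pair of comparisons shares the WT arrays.

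RBM48, part of a complex of minor-intron splicing in maize and human, was the other large rise in BCL6KO. It read -1.20, -1.18 and -1.16 in WT, 0.09 and 0.06 in BCL6KO and -1.47, -1.30 and -1.42 in DKO. By this probe the 3 groups were separate, with a rise of 1.25 ± 0.07 in BCL6KO (adjusted p = 1.06e-05) and a change of -0.22 ± 0.07 in DKO (adjusted p = 0.0289), the latter call lost without any single WT array and without DKO replicate 1 or 3 (-0.23 to -0.18). The other 2 probes of RBM48 were at -0.21 and -0.28 in BCL6KO, neither called, so the rise rests on 1 of 3 probes. The value for RBM48 fell to 0.25 when all its probes were averaged, still called at an adjusted p of 0.0467.

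Among the further RBM genes, RBM6, related to the tumour suppressor RBM5, read -1.40, -1.34 and -1.39 in WT, -2.04 and -2.26 in BCL6KO and -1.01, -0.95 and -0.96 in DKO. Its groups were separate, with changes of -0.77 ± 0.08 (adjusted p = 0.000197) and 0.40 ± 0.07 (adjusted p = 0.00351). RBM45 was lower in BCL6KO by -0.75 ± 0.07 (adjusted p = 0.00012) and RBMXL1, a copy of RBMX, by -0.59 ± 0.09 (adjusted p = 0.0011), and RBMXL1 was higher in DKO by 0.47. RBM10, a regulator of exon skipping, was higher in DKO by 0.55 ± 0.06 (adjusted p = 0.000297) and at -0.09 in BCL6KO, where it was not called. In BCL6KO against WT a further RBM10 probe differed from the brightest by 0.39 in the test between probes (adjusted p = 0.00285), and another by -0.15, not called. RBM25 (0.52) and RBM7 (0.30), the latter a subunit of a nuclear RNA decay complex, were the other RBM genes called higher in BCL6KO. The RBM25 rise was not shared by all its probes. Further probes differed from the brightest by -0.58 and -0.48 in the test between probes (adjusted p = 0.00281 and 0.00441), and another by 0.11, not called. RBM12 (-0.42) and RBM19 (-0.34), which acts in ribosome assembly, were lower in BCL6KO. RBM19 was at -0.17 without BCL6KO replicate 1 and -0.52 without BCL6KO replicate 2, and its other probe was not called (-0.15). RBM3, induced by cold in mammals, was called only in DKO against BCL6KO (0.49, adjusted p = 0.0453). RBM22, which sits in the catalytic core of the spliceosome, was called in no comparison.

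Of 12 DEAD-box helicases 9 were lower in BCL6KO and 0 higher (median -0.32), beside 27.6% and 42.0% of all genes. Among genes with a mean level above 0 these shares were 39.0% and 31.7%. The median of the 12 helicases kept its direction under the 4 settings used for the SR genes, with 2 called higher under cyclic loess. In DKO 5 were higher than WT and 2 lower, beside 28.6% and 23.7% of all genes, but 3 and 3 under scaling by the median. DDX42, a helicase of early spliceosome assembly, read 2.14, 2.09 and 2.02 in WT, 1.36 and 1.37 in BCL6KO and 2.30, 2.24 and 2.25 in DKO. The BCL6KO fall was -0.71 ± 0.07 (adjusted p = 9.25e-05) with all 4 probes lower, and the DKO rise of 0.18 was called in 3 probes while the fourth fell by 0.51. The DKO rise of DDX42 did not pass the test without any single WT or DKO array (0.15 to 0.21) or under scaling by the median (0.03).

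DDX5 and DDX17 are close paralogs that act in splicing and as transcriptional coactivators. DDX5 read 5.39, 5.23 and 5.31 in WT, 5.42 and 5.65 in BCL6KO and 5.98, 5.95 and 6.00 in DKO, a rise of 0.66 ± 0.08 in DKO (adjusted p = 0.000517). In BCL6KO it was at 0.22 ± 0.09 (adjusted p = 0.0678), but it was called higher by its other probe (0.46), with its probes averaged (0.34), under cyclic loess (0.29) and without BCL6KO replicate 1 (0.34). DDX17 read -1.60, -1.64 and -1.54 in WT, -2.15 and -2.27 in BCL6KO and -1.16, -1.14 and -1.17 in DKO. Its changes were -0.62 ± 0.07 in BCL6KO (adjusted p = 0.000233) and 0.44 ± 0.06 in DKO (adjusted p = 0.000984). Both paralogs were thus higher in DKO, and in BCL6KO only DDX17 of the pair passed the test by its brightest probe.

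DDX27, a helicase of ribosome biogenesis, was lower in DKO, where most called members were higher. It read 4.76, 4.59 and 4.71 in WT, 4.24 and 4.49 in BCL6KO and 3.96, 3.82 and 3.97 in DKO, with no overlap between groups. The falls were -0.77 ± 0.09 in DKO (adjusted p = 0.000465) and -0.32 ± 0.10 in BCL6KO (adjusted p = 0.0293), and DDX27 was the only member called lower in all 3 comparisons. Its 3 probes fell by 0.77 to 1.03 in DKO, while 2 of 3 were lower in BCL6KO. The BCL6KO call was lost without BCL6KO replicate 1, WT replicate 1 or WT replicate 3 (-0.19, -0.29 and -0.31). Among other helicases known from ribosome assembly, values in DKO against WT were mixed: DDX10 (0.19) and DDX47 (0.38) were called higher, DDX18 (0.20) and DDX52 (-0.08) were not called, and DDX55 (-0.24) was called lower. DDX18 was lower in BCL6KO by -0.52, or by -0.29 without BCL6KO replicate 1.

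DDX3X, which acts in translation, was lower in BCL6KO (-0.45, adjusted p = 0.00277), with 5 of 8 probes called. DDX1, part of the tRNA ligase complex, was lower by -0.40 (adjusted p = 0.0338), a call lost without BCL6KO replicate 1, WT replicate 1, WT replicate 2 or DKO replicate 2 (-0.22, -0.35, -0.37 and -0.40). Among 4 DEAH-box genes, DHX15, which takes apart the spliceosome after splicing, was lower in BCL6KO (-0.41, adjusted p = 0.0146) and higher in DKO (0.38, adjusted p = 0.017). Its BCL6KO call was lost without BCL6KO replicate 1 (-0.26), and its DKO call without WT replicate 2 or 3 or DKO replicate 1 (0.34 to 0.37) and under scaling by the median (0.23). DHX38, the vertebrate PRP16 of the second step of splicing, was lower in both, by -0.34 and -0.37, the BCL6KO call being lost without WT replicate 1 (-0.32) and its value being -0.22 without BCL6KO replicate 1. DHX57 was lower in DKO (-0.47, adjusted p = 0.000713), and DHX30, of mitochondrial RNA, was called in no comparison.

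The 3 comparisons share arrays, and their calls are set side by side here. Together 11 members (18.6%, beside 5.07% of all genes tested) were lower in BCL6KO than WT, higher in DKO than WT and higher in DKO than BCL6KO: DDX10, DDX17, DDX42, DDX47, DHX15, HNRNPKL, RBM24, RBM6, RBMXL1, SRSF3 and SRSF6. The fall of DDX47 in BCL6KO was called by 1 of its 3 probes. Its other probes differed from that one by 0.37 and 0.39 in the test between probes (adjusted p = 0.0183 and 0.0253). A further 14 (23.7%, beside 8.29%) were lower in BCL6KO, not called in DKO against WT and higher in DKO than in BCL6KO, SF3A1, SRSF1 and SRSF2 among them. DHX38, DDX27, PRPF19 and PRPF3 were lower in both groups than in WT. The 11 members called in no comparison (18.6%, beside 15.3% of all genes) were DDX19, DHX30, HNRNPA2B1, HNRNPAB, HNRNPH3, LSM14A, RBM12B, RBM22, SF3A2, SNRPE and SRSF10. By their brightest probes their changes ran from -0.39 to 0.20 in BCL6KO and from -0.11 to 0.11 in DKO. The 95% intervals of these probes reached, over these 11 genes, from -0.82 to 0.50 and from -0.37 to 0.42. Further probes of SF3A2 in BCL6KO and of SRSF10 in DKO lay outside these bounds, as given above.

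**Figure D5:**
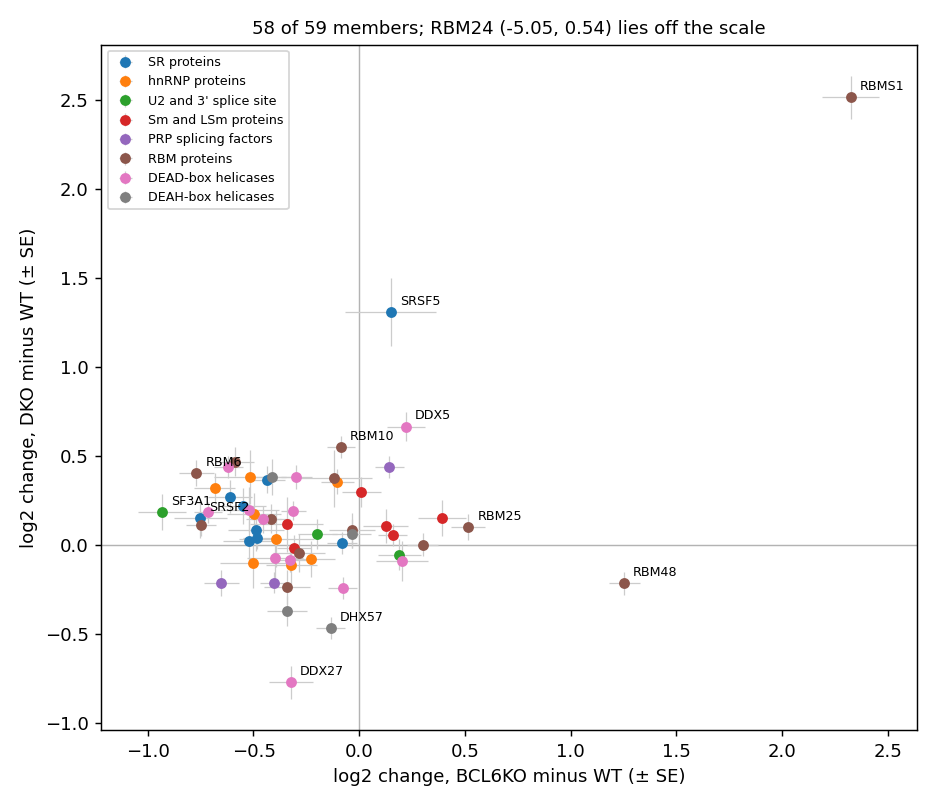
Log2 change in DKO (vertical axis) against log2 change in BCL6KO (horizontal axis), both from the same WT arrays, for the members, coloured by role, with standard errors. Most points lie left of 0 and near or above the horizontal line, RBMS1 lies at the upper right (2.33, 2.51), and RBM24 (-5.05, 0.54) is off the scale.

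The DKO comparison could be read within slides, since 2 slides held both a WT and a DKO array. All 25 members called in DKO against WT had the pooled sign within both slides, as did 12568 of the 12623 genes called, and the pooled difference already holds these 4 arrays. With slide as a fixed block, a setting chosen after seeing the data, 17 members were called, 15 higher and 2 lower, beside 46.1% of all genes. Each BCL6KO array was alone on its slide.

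Other genes of the same pathways were also more often called lower than higher in BCL6KO. Of 45 tested genes from a list of splicing factors without the 10 prefixes, 26 were lower and 5 higher in BCL6KO (median -0.33). Of all genes 27.6% were lower and 42.0% higher, and of genes with a mean level above 0 39.0% were lower and 31.7% higher. In DKO 11 of the 45 were higher and 7 lower (median 0.13), a smaller share higher than the 28.6% of all genes. In DKO against BCL6KO 27 were higher and 4 lower, where 29.0% of all genes were higher and 39.3% lower. FUBP1, which binds single-stranded DNA and RNA, had the largest change of these in BCL6KO at -2.24, followed by MBNL2 (1.78, with an SD of 1.62 over the BCL6KO pair), a muscleblind splicing regulator, CELF2 (-1.32) and SLU7 (-1.02), which helps choose the 3′ splice site. In DKO against WT the largest called change was that of PTBP2, the neuronal relative of PTBP1, which was 2.15-fold higher, followed by THOC7 of the export machinery, 1.92-fold lower, and DBR1, the lariat debranching enzyme, 1.76-fold lower. Of 4 other RNA helicases tested, SUPV3L1 of mitochondria was lower in BCL6KO (-0.72), and EIF4A2, a translation initiation helicase, was lower in DKO than in WT (-0.24) and than in BCL6KO (-0.45).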

How the data were processed

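Intensities came from 8 scanner files, 1 per array, of Agilent chicken arrays read in a single colour with Feature Extraction 10.7.1.1 (WT, DKO) or 10.7.3.1 (BCL6KO), per the file headers. The processed signal is an intensity that the scanner software had already background-subtracted and detrended within the array, per the file headers, and it was not normalized between arrays. The submitters' processing notes name limma and R 2.12.0. Per the labels' protocols, RNA was labelled with Cy3, although a label field says biotin. The authors also deposited a table of processed intensities on a linear scale, taken to log2 here. It is normalized between arrays, as its like column medians show, by a method not given in the sources used here.

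Control spots and outlier flags were left out, and no member spot was saturated. The 75th percentile of the processed intensity was 2930 to 3099 on WT, 2550 to 2600 on DKO and 1924 to 2195 on BCL6KO arrays, and 62.4% to 79.2% of probes were well above background. The number of arrays limits the precision. Groups were compared with limma 3.58.1 in R 4.3.3 (a mean per group over all 8 arrays, eBayes, Benjamini-Hochberg over 24147 gene entries), after a test on simulated data. Since nothing says that the BCL6KO and DKO arrays came from separate cultures, p-values measure only the spread between these arrays. Replicate numbers did not pair arrays: deviations of same-numbered arrays from their group means correlated at -0.06 to 0.05.

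Members and lists were chosen with earlier results of these data known. Members named with values were those with the 10 largest called changes per comparison, the largest called rise and fall per prefix, a list of 16 known genes on the array, and the 5 least changed. Further members were named to account for the list, after their values were seen. Alternatives covered scaling, background correction, filters, probe averaging, blocks, array weights, a minimum fold of 1.5 and leaving out each array. Chromosomes, promoter motifs and sequences were not analysed here.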

Additional observations from a re-analysis of the deposited data

How the results depend on the processing

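Over the alternatives run, 1972 results for named members kept their side of the threshold, 214 lost the call, 66 gained it, and 5 that were called before or after changed sign. Among the 1972, 66 that were called in neither setting also changed sign. The 5 were SNRPD3 in BCL6KO under scaling by the median (-0.28), LSM12 (-0.092) and DDX17 (0.14) in BCL6KO under normexp, RBM22 without BCL6KO replicate 1 (0.15) and SRSF5 without BCL6KO replicate 2 (-0.26), where leaving out the other gave 0.55. Neither normexp value passed the test. Scaling by the median also turned the members' median in DKO against WT to -0.036. It moved the other medians to -0.62 (BCL6KO against WT) and 0.58 (DKO against BCL6KO). The medians of all genes moved with them, to -0.08, -0.05 and -0.03. Cyclic loess moved the members' median in DKO against BCL6KO to 0.32, with 30 members higher and 9 lower. Of all genes 16357 were called there, 46.8% of them higher. Normexp gave 13, 2 and 21 members called in BCL6KO against WT, DKO against WT and DKO against BCL6KO, with medians of -0.66 and 0.72 in the first and last. It ran on the median spot signal. With background values over 10 times the array median set to that median, the counts were 39, 26 and 44, beside 18913, 13732 and 18026 of all genes. Such values were found at 18 spots on BCL6KO replicate 1 and at 0 on the other arrays, and both normexp settings were otherwise the same. A minimum fold of 1.5 left 4, 2 and 10, and array weights gave 24, 33 and 27. Normexp called 6884, 2822 and 5933 of all genes, the minimum fold 8609, 5259 and 8117, and array weights 11967, 15906 and 11421, against 16814, 12623 and 16492 as reported. The cause of these shifts was not tested.

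Leaving out each array gave 31 to 45 members called in BCL6KO against WT, 15 to 32 in DKO against WT and 34 to 51 in DKO against BCL6KO, with medians of -0.45 to -0.21, 0.08 to 0.14 and 0.33 to 0.50. Where an array was left out of BCL6KO, the lone array was assumed to vary like the other groups. With the replicate number as a block the counts were 31, 17 and 34, beside 15323, 11322 and 14891 of all genes. With slide as a random block they were 37, 25 and 41, beside 16814, 12600 and 16491. Members called in the same direction in all 20 alternatives listed with the design were RBM24, RBM48, RBMS1 and SF3A1 in BCL6KO against WT, RBMS1 and SRSF5 in DKO against WT, and DDX42, HNRNPKL, RBM24, RBM45, RBM48, RBMXL1, SF3A1 and SRSF3 in DKO against BCL6KO. The authors' value table was not run as an alternative, because its WT and DKO columns do not follow the scanner files of the same label. With 2 BCL6KO arrays, changes in that group carry the widest errors.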

Other observations

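The authors' table of processed values, taken to log2, was set against the scanner files. Its column medians were 7.814 in the columns labelled WT and 7.833 in the others, and how the authors scaled or centred it is unknown. Each of its 3 columns labelled WT correlated at 0.999 across probes with a scanner file labelled DKO and at 0.944 to 0.945 with the WT file of its own label. The BCL6KO columns correlated best with their own files, at 0.998 each. The columns labelled DKO followed no file closely, with best correlations of 0.8821, 0.9749 and 0.9736, all with WT files. On the log2 scale of the authors' deposited table IRF4 was at 9.55 to 9.67 in the columns labelled WT, 16.1 to 16.5 in BCL6KO and 14.5 to 15.2 in DKO. BCL6 in the authors' deposited table was at 12.03 to 12.29 in the columns labelled WT, 6.802 and 6.362 in BCL6KO and 13.7 to 13.8 in DKO. The columns labelled DKO thus hold neither targeted gene at a low level. The limma test over the 5 columns labelled BCL6KO and DKO, chosen after seeing the data, called 2 members higher and 1 lower in DKO. Over all genes it called 11.5%, and their split by direction was not counted. An unadjusted p under 0.05 was found for 12 of 59 members, beside 6792 of 24147 genes. The members' median was 0.12 against -0.16 over all genes.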
